A study of Mus musculus with 12 samples.

Results

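The genes described are 10 C-type lectin receptors of myeloid cells in the mouse: Clec4n, Clec4d, Clec4e, Clec7a, Clec4a1, Clec4a2, Clec4a3, Clec10a, Clec12a and Mgl2. They were listed by name after the difference between tumor and normal arrays had been seen, so their values in that comparison are a description and carry no test. Of the 10 genes, 8 had a probe that passed the filter on dim probes, out of 16403 genes tested. The samples were macrophages sorted by flow cytometry from pancreas tumor and, for the other group, from normal pancreas, and RNA was measured on 6 single-color Agilent arrays per group. All mice were labelled female, C57/B6 and 4 to 5 months old, with no genotype provided. The labels mention tumor implantation in the treatment of all samples, while the series design names wild-type, KPC and FLT3-CRE/LSL-YFP mice. Which of these gave each sample is not stated, so neither the tumor model nor a shared allele can be assigned. In each group 1 sample name appeared on 2 arrays (tumor replicates 4 and 6, normal replicates 2 and 3). These arrays were averaged, which left 5 samples per group, written tumor 4/6 and normal 2/3 where averaged.

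C-type lectin receptors are surface proteins that bind sugars and glycolipids of microbes and of damaged or altered host cells. Dectin-2 (Clec4n) and Mincle (Clec4e) pair with the Fc receptor gamma chain, and Dectin-1 (Clec7a) carries its own activation motif. All of these signal through the kinase Syk and the adaptor Card9 to NF-kB. Other members carry inhibitory motifs, as do DCIR (Clec4a2) and MICL (Clec12a), or bind galactose-type sugars and serve uptake, as do Mgl2 and Clec10a.

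Each gene was read by 1 probe of 60 bases, so the values rest on a short stretch of each transcript. Stretches of 30 bases are shown for the receptors that differed most (Clec4n, Clec4e), for the partner of Mincle (Clec4d), for the receptors with no signal (Clec4a2, Clec12a) and for a receptor at like levels in both groups (Mgl2). They are from the array annotation, with whole-probe positions on mm9, which gives no exon or UTR. Capitals mark AATAAA, the hexamer that precedes many polyadenylation sites, and the stretch was placed to hold it where the probe has it.
Clec4n (chr6:123196969-123197028, plus strand): tgttacttgaaagtataagatgAATAAAca
Clec4e (chr6:123232878-123232937, minus strand): cgcaagtagaacctgctcagtaggttcaaa
Clec4d (chr6:123224788-123224847, plus strand): aattggaagccctcgaagtgatccttgatg
Clec4a2 (chr6:123093890-123093949, plus strand): tctctaatctggaattggtcattttaagca
Clec12a (chr6:129314880-129314939, plus strand): gtAATAAAgcttAATAAActaggagtagat
Mgl2 (chr11:69950985-69951044, plus strand): tagtgtcgcaacAATAAAatttgagcttta
The probes of the other members lie at chr6:129411739-129411798 (Clec7a), chr6:122884578-122884637 (Clec4a1), chr6:122919637-122919696 (Clec4a3) and chr11:69984254-69984313 (Clec10a). The probes held 35.0% to 43.3% G and C, and 0 probes of other genes shared a run of 20 bases with any of them.

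The 75th percentile of signal, to which each array was scaled, ran from 1091 to 1398 on tumor arrays and from 398 to 1547 on normal arrays. Normal replicates 2 and 3 were the dimmest, at 398 and 430.2. The 17 macrophage identity genes, among them the receptors Csf1r and Adgre1, were all tested with 0 past the threshold. They made up 0.716% to 0.851% of summed signal in tumor samples and 0.66% to 0.88% in normal samples. Of these, Cd163, a scavenger receptor, differed by -1.77 ± 0.45 (log2, SE, limma adjusted p = 0.123), with groups that did not overlap, and Adgre1 by -0.80 ± 0.24 (limma adjusted p = 0.195). The Fc receptor genes Fcgr3 and Fcgr1 differed by 0.54 ± 0.22 and 0.58 ± 0.30 (limma adjusted p = 0.326 and 0.46), without overlap for Fcgr3. Of the 17 genes, 7 had a higher mean in tumor and 10 a lower one. Monocyte genes averaged 0.79 to 1.99 in tumor samples and -0.28 to 0.19 in normal samples (log2 signal relative to the 75th percentile). Past the threshold, 3 of 13 tested genes were higher in tumor (F10 and Hp among them), against 0.341% of all genes, and 0 were lower. In the same list 10 genes had a higher mean in tumor. The other 3 had a lower one: F13a1 (-0.60 ± 0.39), Cd177 (-0.48 ± 0.68) and Ace (-0.42 ± 0.30). Neutrophil genes made up 0.025% to 0.0336% of signal in tumor samples and 0.0161% to 0.0238% in normal samples, and Elane was below background on all arrays. By mean log2 signal the groups overlapped for this list, with -2.31 to -0.38 in tumor and -2.79 to -1.86 in normal samples. Of 13 tested neutrophil genes 1 passed, where 0.854% of all genes did. It was Retnlg (higher by 4.34 ± 0.78 log2, SE, limma adjusted p = 0.0338), which was above background on 2 of 6 normal arrays. Retnlg differed by 2.04 with normexp and lost its call in 7 of 10 fits that left out 1 sample. Mmp9, of the same list, differed by -2.37 ± 0.61 (limma adjusted p = 0.124). Of the neutrophil genes tested, 9 had a higher mean in tumor, against 49.6% of all genes, and 4 a lower one, Mmp9 among them. Dendritic cell genes made up 0.04% to 0.16% in tumor samples and 0.0307% to 0.0656% in normal samples, with 0 of 13 past the threshold. Their mean was higher in tumor for 12 of 13, against 49.6% of all genes. In limma 5 of 13 had an unadjusted p under 0.05, against 13% of all genes. Acinar genes, which encode digestive enzymes, made up 0.00709% to 0.242% in tumor samples and 0.54% to 3.21% in normal samples. Past the threshold, where 0.512% of all genes were lower in tumor, 13 of 17 acinar genes were. In normal samples 1, 2/3, 4 and 5 their share (1.43%, 3.21%, 1.91% and 2.34%) exceeded that of the macrophage genes (0.88%, 0.66%, 0.804% and 0.827%). In sorted populations measured in bulk, fewer cells of a type and less RNA per cell cannot be told apart. The part of these cell types in the values below was not tested.

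Among the receptors that activate Syk, the tumor minus normal difference was 2.44 for Clec4n, with no overlap of the groups, and 2.78 for Clec4e, with overlap (log2). It was 0.72 for Clec7a, less than the spread between samples, and -0.09 for Clec4d. Clec4n, which encodes Dectin-2, a receptor for alpha-mannans, had log2 signals relative to the 75th percentile of 3.34, 3.57, 2.72, 2.17 and 3.57 in tumor samples 1, 2, 3, 4/6 and 5. Its log2 signals were 0.82, 0.77, 0.77, 0.20 and 0.63 in normal samples 1, 2/3, 4, 5 and 6. The lowest tumor sample (4/6) lay above the highest normal sample (1), so the groups did not overlap. The means were 3.07 ± 0.61 in tumor and 0.64 ± 0.25 in normal samples (SD, n = 5 each), a difference of 2.44 ± 0.30 (log2, SE) or 5.41-fold. Clec4n was above background on every array of both groups.

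Clec4e, which encodes Mincle, a receptor for the mycobacterial glycolipid trehalose dimycolate, had log2 signals of -0.18, 1.28, 0.99, -1.44 and 1.05 in tumor samples 1, 2, 3, 4/6 and 5. The normal samples 1, 2/3, 4, 5 and 6 had -2.28, -1.49, -2.17, -5.15 and -1.10. The groups overlapped through tumor 4/6, which lay below normal 6. Normal 5 stood lowest and was the only sample in which Clec4e was not well above background. The difference was 2.78 ± 0.77 (log2, SE) or 6.86-fold, with means of 0.34 ± 1.15 in tumor and -2.44 ± 1.59 in normal samples (SD, n = 5 each). With background correction by normexp the difference was 1.42, and without normal 5 it was 2.10.

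Clec4d encodes MCL, which binds the same glycolipid and forms a complex with Mincle. Its log2 signals were -0.15, 0.74, -0.51, -2.21 and -1.48 in tumor samples 1, 2, 3, 4/6 and 5, against -0.32, -0.25, -1.22, -0.84 and -0.55 in normal samples 1, 2/3, 4, 5 and 6. The tumor samples lay on both sides of all normal samples. Their SD was 1.15 against 0.40 in normal samples, and the difference of the means was -0.09 ± 0.50 (SE). Its sign changed in 3 of the 10 fits that left out 1 sample.

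Clec7a encodes Dectin-1, the receptor for beta-glucans of fungal cell walls. Its log2 signals were 2.32, 2.54, 1.23, 0.97 and 2.69 in tumor samples 1, 2, 3, 4/6 and 5, against 1.39, -0.62, 1.16, 2.82 and 1.39 in normal samples 1, 2/3, 4, 5 and 6. Normal 5 was the highest of all samples and normal 2/3 the lowest, so the groups overlapped throughout. The difference was 0.72 ± 0.59 (SE), or 1.65-fold, and it was 0.26 without normal 2/3.

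**Figure D1:**
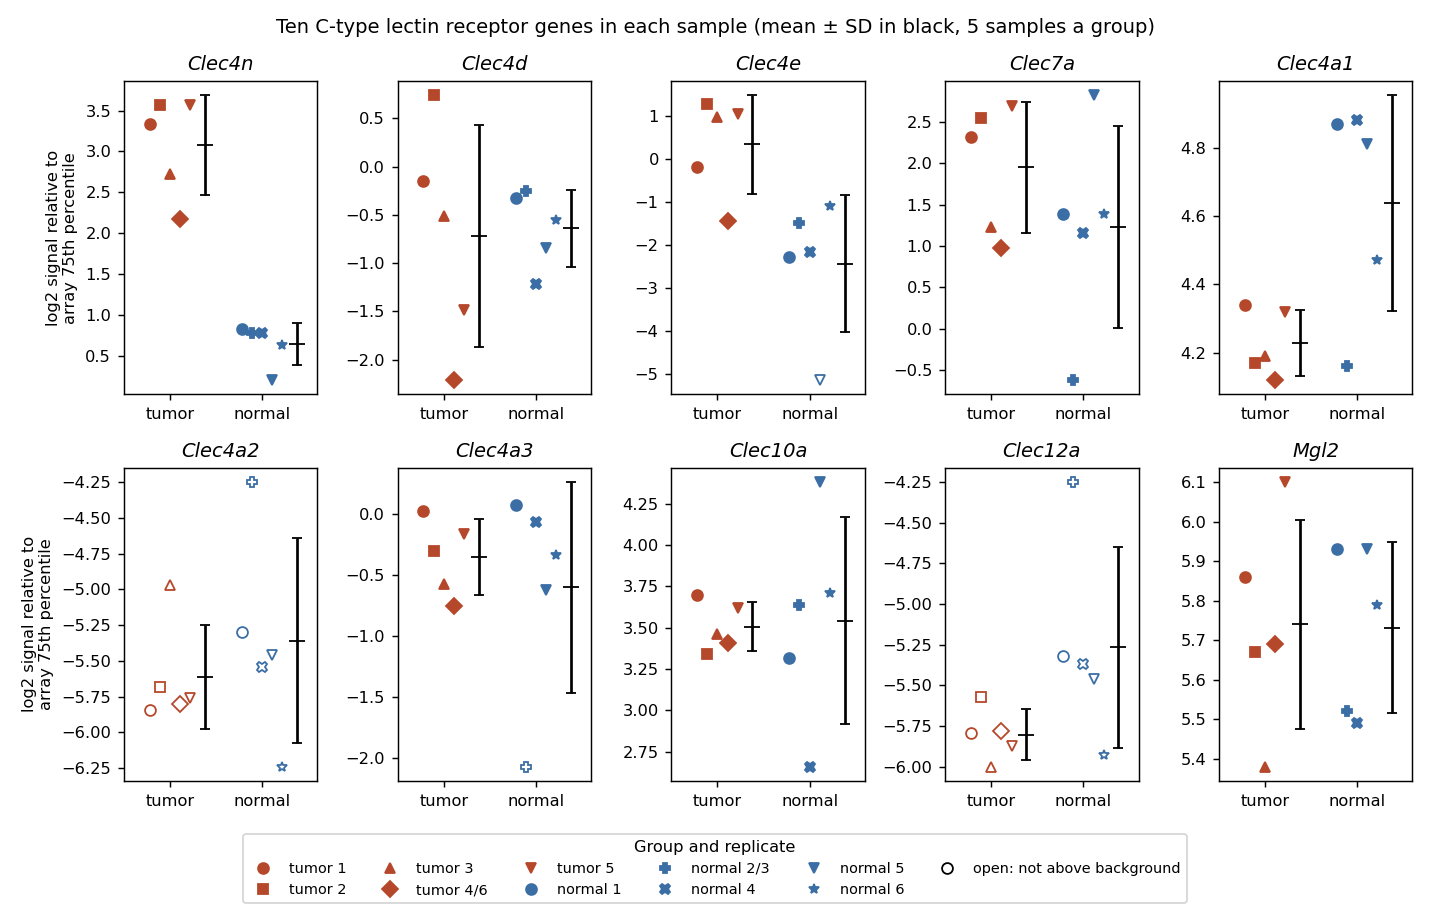
Log2 signal of each of the 10 receptor genes relative to the 75th percentile of its array, for 5 tumor samples (red) and 5 normal samples (blue), with the mean and SD in black. Each shape is 1 sample, open symbols were not well above background, and each panel has its own scale. All tumor samples lie above all normal samples for Clec4n, while Clec4a2 and Clec12a have only open symbols.

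Of the receptors of the DCIR group, Clec4a1 differed by -0.41 and Clec4a3 by 0.25 (log2), both with overlapping groups, and Clec4a2 gave no signal above background. Clec4a1 had log2 signals of 4.34, 4.17, 4.19, 4.12 and 4.32 in tumor samples 1, 2, 3, 4/6 and 5, against 4.87, 4.16, 4.88, 4.81 and 4.47 in normal samples 1, 2/3, 4, 5 and 6. Only normal 2/3, a dim pair of arrays, lay within the tumor range, and the other normal samples lay above all tumor samples. The difference was -0.41 ± 0.21 (SE), or 0.752-fold. The SD was 0.10 in tumor and 0.32 in normal samples.

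Clec4a3 averaged -0.35 ± 0.31 in tumor and -0.60 ± 0.87 in normal samples (log2 signal, SD, n = 5 each), a difference of 0.25 ± 0.39 (SE). Its tumor samples ran from -0.75 to 0.03. Among normal samples, normal 2/3 stood at -2.07 and was not well above background on either of its arrays, whereas the others ran from -0.62 to 0.08. Clec4a2, the inhibitory DCIR, and Clec12a, the inhibitory MICL that binds uric acid crystals, were not well above background on any of the 12 arrays. No fold can be given for either gene.

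The galactose-type lectins Clec10a and Mgl2 were well above background on all arrays, with differences near 0. Clec10a had log2 signals of 3.70, 3.34, 3.46, 3.41 and 3.62 in tumor samples 1, 2, 3, 4/6 and 5, against 3.32, 3.64, 2.66, 4.38 and 3.71 in normal samples 1, 2/3, 4, 5 and 6. The tumor samples lay within the normal range, with an SD of 0.15 against 0.62, and the difference was -0.04 ± 0.30 (SE). Mgl2 had log2 signals of 5.86, 5.67, 5.38, 5.69 and 6.10 in tumor samples 1, 2, 3, 4/6 and 5, against 5.93, 5.52, 5.49, 5.93 and 5.79 in normal samples 1, 2/3, 4, 5 and 6. The groups overlapped throughout, and the difference was 0.01 ± 0.21 (SE).

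Of the 8 members tested, 1 (Clec4n, higher) had an adjusted p under 0.05 in limma, where 0.854% of all genes passed in either direction with 0.341% higher and 0.512% lower in tumor. The groups did not overlap for 1 of 8 members, again Clec4n, where 3.35% of all genes did not overlap (1.77% higher and 1.58% lower in tumor). The members were chosen on this comparison, so nothing is read from these counts.

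The members varied among tumor samples. Tumor 4/6 was the lowest tumor sample for 6 of the 8 genes (Clec4n, Clec4d, Clec4e, Clec7a, Clec4a1, Clec4a3). The highest was tumor 2 for Clec4d and Clec4e, while for Clec4n tumor 2 and tumor 5 stood level at 3.57. Tumor 4/6 also had the lowest mean of monocyte genes among tumor samples (0.79), and the part of those cells in the pattern was not tested. The repeat arrays of tumor 4/6 differed by 0.05 (Clec4e) to 0.46 (Clec4a3) in log2 signal. For Clec4n they differed by 0.16 and for Clec4d by 0.06, against pooled SDs between samples of 0.47 and 0.86. For Clec10a, the repeats of tumor 4/6 and normal 2/3 differed by 0.42 and 0.43, close to its SD between samples of 0.45.

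Each slide held 2 arrays of either group, which allowed the difference to be read within a slide. Slides 1 and 2 share the name of normal 2/3, and slides 2 and 3 that of tumor 4/6, so slides are not independent. Clec4n differed by 2.63, 1.67 and 2.49 (log2) within slides 1, 2 and 3, and Clec4e by 2.47, 1.56 and 2.94. The tumor mean was thus above the normal mean on every slide for both genes, although for Clec4e single arrays overlapped: tumor 4 (-1.47) lay below normal 3 (-1.43) on slide 2, and tumor 6 (-1.42) below normal 6 (-1.10) on slide 3. Clec7a differed by 2.03, 0.90 and -0.32 and Clec4d by 0.57, -0.60 and -1.16, so their sign depended on the slide. Clec4a1 had differences of -0.22, -0.40 and -0.43.

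**Figure D2:**
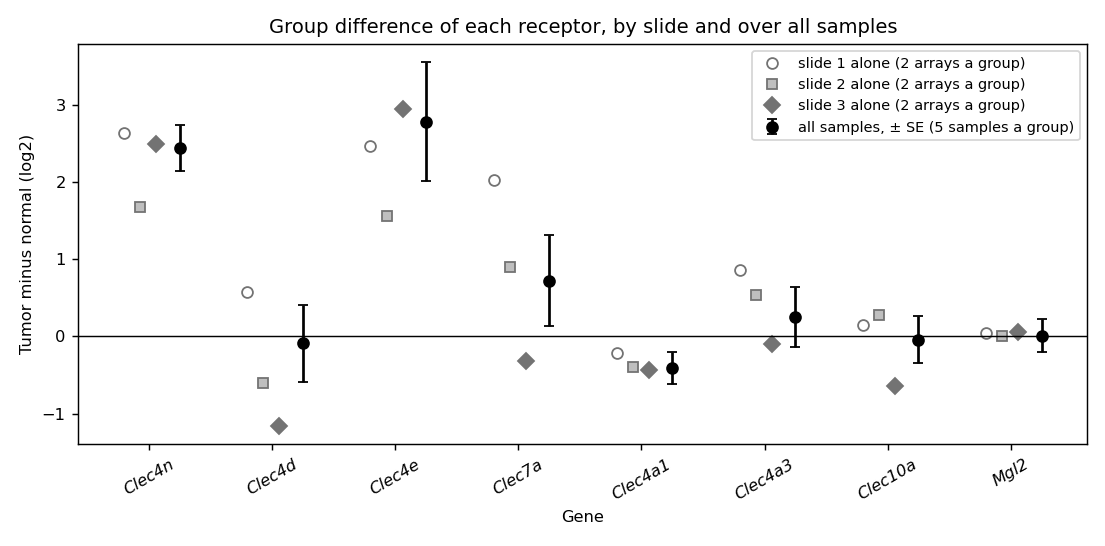
Tumor minus normal difference in log2 signal for the 8 tested receptor genes, within each slide (gray, 2 arrays per group) and over all samples (black, ± SE, 5 samples per group). Clec4n and Clec4e lie above 0 on all slides, and Clec7a and Clec4d lie on both sides of 0.

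Most members lie in clusters on chromosome 6. In gene order (RefSeq, GRCm38.p6), the first cluster holds Clec4a1, Clec4a3, Clec4a4, Clec4b1, Clec4a2, Clec4b2, Clec4n, Clec4d and Clec4e. Clec4d, with a difference of -0.09, lies between Clec4n (2.44) and Clec4e (2.78). In the same cluster Clec4b1, a DCAR-type receptor, had log2 signals of 2.50 ± 0.39 in tumor and 1.12 ± 0.45 in normal samples (SD, n = 5 each), a difference of 1.38 ± 0.28 (SE) that did not pass in limma (adjusted p = 0.0563), although the groups did not overlap. Its other probe gave -0.66, and the mean of its probes gave 0.36 (limma adjusted p = 0.657), so its direction depends on the probe. Clec4a4 and Clec4b2 did not pass the filter.

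In the cluster around Clec7a (0.72), Clec1a differed by -0.88 ± 0.32 and Clec1b by -0.35 ± 0.47 (log2, SE), and Clec12a, Clec12b, Clec9a and Olr1 did not pass the filter. On chromosome 11, Mgl2 and Clec10a lie beside Asgr2, a subunit of the asialoglycoprotein receptor, which differed by 1.27 ± 0.74 (SE) and was above background on 6 tumor and 3 normal arrays. Neighbours in a cluster thus had differences of unlike size. Signs differed as well, but the differences of Clec4d (-0.09 ± 0.50), Clec1b and Clec10a (-0.04 ± 0.30) were smaller than their SE. The sign of these genes is therefore not settled.

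**Figure D3:**
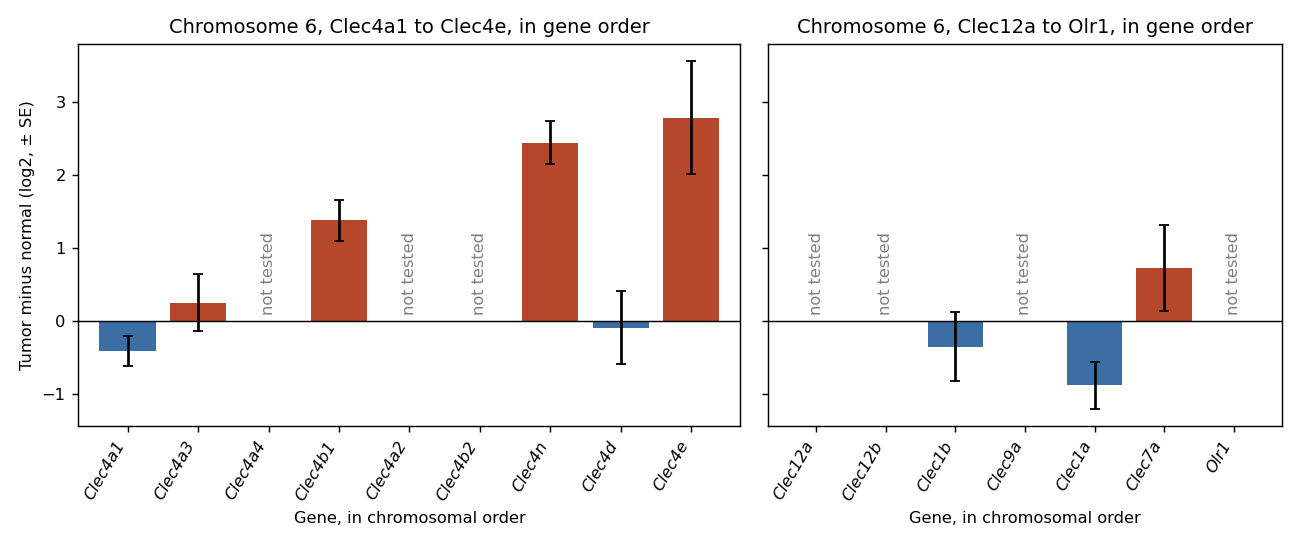
Tumor minus normal difference in log2 signal (± SE, 5 samples per group) for genes of both chromosome 6 clusters, in chromosomal order. Bars above 0 are red and bars below 0 are blue, and genes whose probes did not pass the filter are marked as not tested. Clec4d stands at -0.09 between Clec4n at 2.44 and Clec4e at 2.78.

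The 250 bases before the start of Clec4e and Clec4d are shown because these neighbours encode partners of 1 receptor complex but had unlike differences. They are from RefSeq (GRCm38.p6), which gave a promoter for 8 of the 10 members. Capitals mark matches, on either strand, to GAGGAA (the core bound by PU.1, a myeloid transcription factor) and TTGCNNAA (C/EBP), which do not overlap here.
Clec4e (chr6:123289872-123290121, minus strand): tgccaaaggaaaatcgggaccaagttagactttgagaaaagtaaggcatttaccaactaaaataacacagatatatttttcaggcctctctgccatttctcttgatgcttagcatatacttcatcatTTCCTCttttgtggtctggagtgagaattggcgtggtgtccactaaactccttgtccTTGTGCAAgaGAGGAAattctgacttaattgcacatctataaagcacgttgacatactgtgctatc
Clec4d (chr6:123261857-123262106, plus strand): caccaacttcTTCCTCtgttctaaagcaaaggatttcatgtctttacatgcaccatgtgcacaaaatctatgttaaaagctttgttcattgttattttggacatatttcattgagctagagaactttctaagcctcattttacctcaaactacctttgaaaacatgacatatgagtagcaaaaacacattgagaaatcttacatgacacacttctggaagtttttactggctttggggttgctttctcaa
Clec4e held 2 matches to GAGGAA, starting 123 and 56 bases before the start, and 1 to TTGCNNAA at 66 bases. Clec4d held 1 match to GAGGAA at 240 bases. Of 27025 promoters of the same length, 23.1% held GAGGAA and 9.6% held TTGCNNAA. Neither promoter held GGG and CC with 5 bases between them (NF-kB, in 45.4% of promoters) or TGANTCA (AP-1, in 6.9%). Among the other members, Clec12a, with no signal above background, also held 2 matches to GAGGAA and 1 to TTGCNNAA. Clec4a1, lower in tumor by mean, held 2 to GAGGAA, Clec7a and Mgl2 held 1 each, and Clec4a2 and Clec4a3 held 0. Whether matches go with the differences was not tested. A match is a description of letters and not a binding site.

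Genes that carry the receptors' signal did not pass the test in either direction: 0 of 48 tested, at a median difference of 0.29 (log2) against -0.0044 over all genes. At an unadjusted p under 0.05 there were 6 of 48, against 13% of all genes, and 34 of 48 were higher in tumor, against 49.6% of all genes. Normal 2/3, the dim pair of arrays with the highest acinar share (3.21%), stood lowest for this list, with 0.151% of summed signal, where tumor samples had 0.343% to 0.387% and the other normal samples 0.261% to 0.357%. Without normal 2/3, 3 of 48 had an unadjusted p under 0.05 in limma. Leaving out other samples gave from 2 (without tumor 1, tumor 2 or normal 5) to 7 (without tumor 3). The part of normal 2/3 in the count of genes higher in tumor was not tested. The smallest p belonged to Prkcd, a kinase between Syk and Card9, with log2 signals of 3.62 ± 0.16 in tumor and 2.69 ± 0.61 in normal samples (SD, n = 5 each) and a difference of 0.93 ± 0.29 (SE, limma adjusted p = 0.213). Pycard, an inflammasome adaptor, differed by 0.86 ± 0.32, Plcg2, a phospholipase downstream of Syk, by 0.82 ± 0.33, and Map3k14, the kinase of the noncanonical NF-kB pathway, by 0.62 ± 0.26 (limma adjusted p = 0.303, 0.325 and 0.353). Named for their roles after their values were seen, Fcer1g, the shared gamma chain, differed by -0.00 ± 0.19, Syk by 0.43 ± 0.25 and Card9 by 0.78 ± 0.40 (limma adjusted p = 0.997, 0.505 and 0.447).

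Of genes known to be induced by such signalling, 1 of 16 tested passed, where 0.854% of all genes did, and 7 of 16 had an unadjusted p under 0.05, against 13% of all genes. Of this list, 4 of 23 listed (Il12a, Il2, Csf2, Csf3) were below background on all arrays. Ccl17, a chemokine for T cells that carry Ccr4, rose by 3.44 ± 0.67 (log2, SE), with log2 signals of 4.48 ± 1.16 in tumor and 1.04 ± 1.22 in normal samples (SD, n = 5 each, limma adjusted p = 0.0452). Its groups did not overlap. The call was lost when any 1 of tumor 1, 2, 4/6 and 5 or normal 1, 2/3, 4 and 5 was left out, at differences of 3.09 to 3.75 (limma adjusted p from 0.0509 to 0.128). The inflammatory cytokine genes Ccl3 and Tnf had differences of -1.53 ± 0.40 and -0.90 ± 0.30 (limma adjusted p = 0.13 and 0.232). Il23a, a subunit of interleukin-23, passed the background limit on 4 of 6 tumor and 0 of 6 normal arrays, so no fold is given.

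Among the other C-type lectin receptors, 1 of 28 tested was higher and 1 lower, where 0.854% of all genes passed, at a median of 0.02. At an unadjusted p under 0.05 there were 8 of 28, against 13% of all genes. Cd209g, of the DC-SIGN family, fell by 3.49 ± 0.52 on the log2 scale (SE, limma adjusted p = 0.012), with -3.15 to -1.66 in tumor and -0.47 to 2.18 in normal samples, and was above background on 4 of 6 tumor arrays. With normexp the difference was -2.35 (limma adjusted p = 0.00153), and on slide 2 alone it was -2.26. Its relative Cd209f had 0.20 to 3.46 in tumor and 3.67 to 5.62 in normal samples, a difference of -2.54 ± 0.58 (limma adjusted p = 0.0821).

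**Figure D4:**
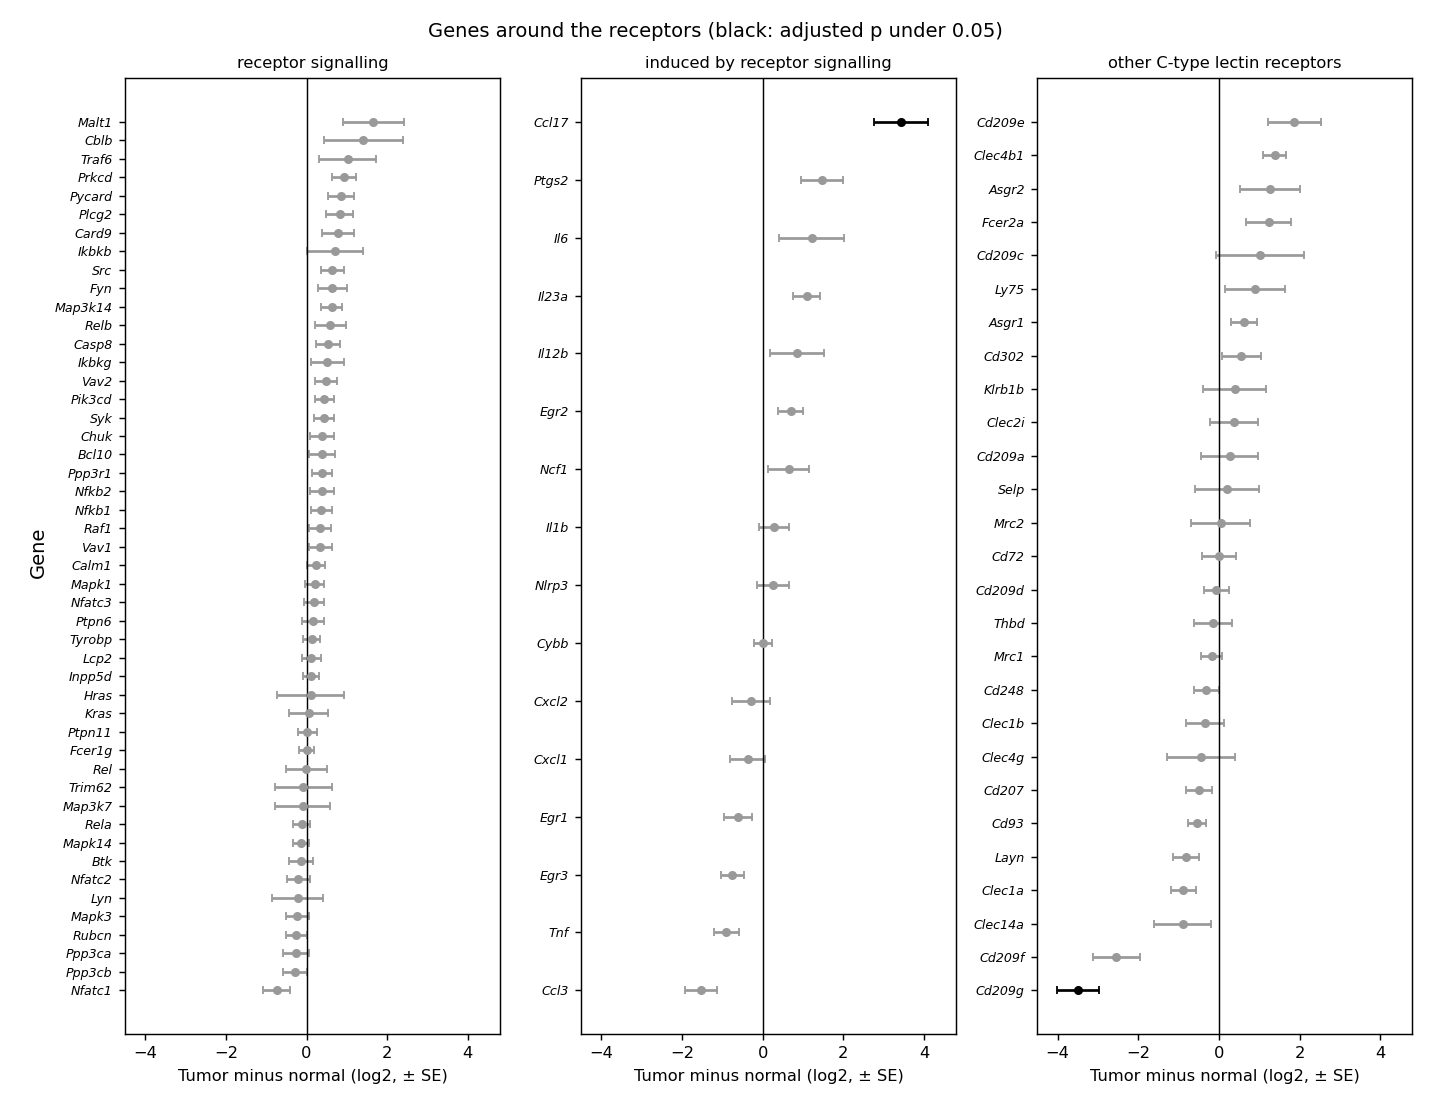
Tumor minus normal difference in log2 signal (± SE, 5 samples per group) for the genes reported from 3 lists around the receptors, with genes past an adjusted p under 0.05 in black. Ccl17 is black above 0 and Cd209g is black below 0. Il23a was above background on 0 normal arrays, so its plotted value is no bound.

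Profiles over the 10 samples were compared after each was centred and divided by its SD. The measure was the root mean square difference over the samples, taken against each of 12831 other genes. The nearest genes to Clec4n were Eva1b (0.22), Galnt6 (0.23) and Kif1a (0.27), and to Clec4e Slc4a11 (0.22), Grhl2 (0.25) and Csnk2a1 (0.31). Clec4n and Clec4e were each other's nearest member, at 0.52, where the median over all genes was 1.33. Clec4d was nearest to Txlna (0.24), Trappc2 (0.42) and Gpx4 (0.44), and its nearest member, Clec4e, stood at 1.16. Clec7a was nearest to Slc6a6 (0.32), Ubl3 (0.37) and Mfng (0.38). Clec4a1 was nearest to Pld2 (0.31), Lpl (0.31) and Lmo2 (0.39), and Clec4a3 to Tacc1 (0.16), Mfsd1 (0.18) and Syngr1 (0.25). Clec10a was nearest to Slc25a30 (0.41), Paip1 (0.47) and Epg5 (0.49), and Mgl2 to Irf4 (0.37), Tmem176b (0.40) and Pak1ip1 (0.44). These genes share the arrays and their depth with the receptors, and the nearest of so many candidates are close by choice. The profiles span both groups, so they hold the tumor minus normal difference, 2.44 for Clec4n and 2.78 for Clec4e. The nearness of these receptors is therefore no result apart from that difference.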

How the data were processed

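Per the labels' protocols, sorted cells were lysed directly, and amplified cDNA (Sigma-WTA2 kit) carried Cy5, so a fold is one of amplified signal. Per the file headers, Agilent Feature Extraction 11.5.1.1 gave the deposited intensity per spot in the red channel, with background and spatial trends subtracted. The authors also deposited a log2 table, which equalled quantile-normalized log2 processed signals when set against the scanner values (lowest correlation 0.9999, column medians 7.081), so its scale is known and it was not centred.

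Control spots and spots with outlier flags (0.401%) were left out, spots of a probe were averaged, and the 75th percentile of log2 signal was subtracted per array. Of 39429 probes, 51.2% to 55.7% passed the scanner software's background limit on tumor arrays and 39.3% to 58.8% on normal arrays, and the number of arrays limits the precision. The 22448 probes that passed this limit on 3 or more of 6 arrays in either group were kept. Names came from accessions through RefSeq GRCm38.p6 (28025 probes), symbols (3413), synonyms (295) or the file (4985), and 2711 probes had none. The probe with the highest mean stood for a gene. The test was limma 3.58.1 (R 4.3.3), two-sided, with Benjamini-Hochberg adjustment over 16403 genes and a threshold of 0.05. It was tested on simulated data drawn independently per gene and sample, without slide effects or a background floor, so that test does not cover such effects. Whether each sample name is a separate animal is not stated, and the p-values therefore reflect only how much these samples vary, in part perhaps for technical reasons.

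The members and lists were chosen with earlier results of these data known. Named were all members and the 3 genes nearest in profile whose symbol is no clone or locus name. Of the signalling, induced and other lectin receptor lists, the 4 genes with the smallest p and those past the threshold were named. Marker lists are given by counts, with few names, which do not follow this rule. A gene that the rule takes is not reported here, although the counts include it. Alternatives covered background correction, scaling, the deposited log2 table, filters, probes, repeat arrays, slide, variance model and leaving out each sample.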

Additional observations from a re-analysis of the deposited data

Results flagged for a closer look

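In 5 of 120 groups of 5 samples checked, over 60 genes, 1 sample stood apart from the others by more of the group's range than Dixon's limit for 5 samples allows, a rule that chance meets in about a share of 0.05 of groups. None of the 8 tested receptors was among them. Map3k14 was at 1.91 (log2 signal relative to the 75th percentile) in tumor 3, where the other tumor samples ran from 2.81 to 2.96. Cd3e, a T cell marker, was at -1.02 in tumor 1, where the others ran from -0.07 to 0.12. Cd79b, a B cell marker, was at 2.33 in normal 1, where the others ran from 1.90 to 2.02. In normal 2/3, the dim pair of arrays, the monocyte marker Hp was at 1.39 (others 0.16 to 0.48) and the natural killer cell marker Ncr1 at -3.51 (others -1.66 to -1.23). Of the receptors, Clec4e in normal 5 came close to the limit without passing it. It stood at -5.15, not well above background, where the other normal samples ran from -2.28 to -1.10.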

How the results depend on the processing

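No paired analysis was possible because the labels give no replicate numbers, and those used here follow accession order and pair no samples. With slide as a block and sample name as a random block, 150 genes passed, against 140. Over the background, scaling, filter, probe and repeat-array alternatives, the difference in Clec4n ran from 2.23 to 2.44 (log2) and that in Clec4e from 1.42 to 2.78, while Clec10a (-0.07 to 0.05) and Mgl2 (-0.00 to 0.16) lay at or on both sides of 0. Clec4e and Clec4a3 gave no value with probes above background on all 12 arrays. Within single slides, Clec4n differed by 1.67 (slide 2), Clec4d by -1.16 (slide 3), Clec7a by 2.03 (slide 1) and -0.32 (slide 3) and Clec10a by -0.64 (slide 3). Leaving out 1 sample, Clec4n ran from 2.31 to 2.66 and Clec4e from 2.10 to 3.22, and the sign changed in 3 of 10 fits for Clec4d, 1 for Clec4a3, 3 for Clec10a and 4 for Mgl2. The count of all genes past the threshold (140) was 213 with normexp, 460 with 12 arrays as separate samples, which counts repeats as independent, and 236 with a trended, robust variance model. It ran from 59 (without normal 5) to 197 (without normal 6), and was 84 without normal 1, 88 without normal 4, and 78 and 71 without tumor 1 and 2. Genes induced by signalling numbered 2 with 12 arrays, 2 with the trended model and 0 to 1 leaving out 1 sample, and other lectin receptors 4 with 12 arrays and 4 with the trended model. Clec4b1 and Cd209f (limma adjusted p = 0.0563 and 0.0821 above) were among these 4, and passed with normexp (limma adjusted p = 0.015 and 0.0223). With probes above background on all 12 arrays they were the 2 lectin receptors that passed, of 12 tested. Cd209g, above background on 4 of 6 tumor arrays, was removed by that filter and not tested. Within slides 1, 2 and 3, limma passed 0 genes in each of these counts, with 1590, 1566 and 953 of all genes, 5, 2 and 2 induced genes and 6, 6 and 7 lectin receptors at an unadjusted p under 0.05. A slide has 2 arrays per group. For signalling genes the count was 0 in limma under all alternatives run. The causes of the other changes were not tested.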
